A study of Mus musculus with 6 samples.

Results

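The mitochondrial ribosomal protein genes were examined in CD71highTer119+ bone marrow erythroblasts of P38α+/− and P38α−/− mice recovering from anemia. They were taken as every array probe, control spots excluded, whose gene name was Mrpl or Mrps followed by a number and at most 1 letter, a rule that used no measured value. It found 76 of 34761 gene names and 106 of 55681 probes. By symbol, 47 genes (65 probes) belonged to the large subunit and 29 genes (41 probes) to the small subunit. All 76 names were current RefSeq symbols.

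Both genotypes carried Mx1-Cre, which is driven by an interferon-responsive promoter and so is not confined to erythroid cells. The controls (P38α+/−, labelled P38hetero) had 1 floxed P38α allele, and the knockouts (P38α−/−, labelled P38ko) had both alleles floxed. Mice of 6 to 8 weeks, male and female, received 3 injections of 300 µg PolyIC to induce Cre and rested for 6 weeks. Erythroblasts were sorted on day 4 after 100 mg per kg of phenylhydrazine (PHZ), which lyses red cells. Each genotype was represented by 3 mice, and 10 ng of RNA from each was amplified and read in Cy3 on 1 whole-genome Agilent array. The comparison asked whether the RNA of this machinery differed between erythroblasts with and without P38α.

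Mitochondria carry their own ribosomes, which translate the few proteins encoded by mitochondrial DNA, all of them parts of the respiratory chain and ATP synthase. Their RNA is made in the organelle, whereas every protein of the large and the small subunit is encoded in the nucleus, translated in the cytosol and imported. Erythroblasts depend on mitochondria for heme synthesis and lose them as they mature to red cells. Promoters of nuclear genes for mitochondrial proteins are known for sites of NRF1, of the ETS family factor GABP (also called NRF2) and of YY1.

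RefSeq promoter windows, from 250 bases before to 50 after a gene's start in GRCm38.p6, were found for 67 of the 76 genes, in 73 distinct windows. Each window was searched on both strands for fixed letters, and the 6 windows below were chosen to show the matches. Mrps21 and Mrpl22 are members with an ETS match whose arrays were all higher in P38α−/−, Mrps18a and Mrps27 held both an ETS and a YY1 match, Mrpl32 held an NRF1 match, and Mrpl35, a dim member, held a YY1 match. The choice of Mrps21 and Mrpl22 used measured values. Members with an ETS match had a median log2 fold change of 0.02 and those without one 0.07. Sequences run 5′ to 3′ on the gene's strand, with matches to NRF1, ETS or YY1 letters on either strand in capitals.
Mrps21 (chr3:95871465-95871764, minus strand): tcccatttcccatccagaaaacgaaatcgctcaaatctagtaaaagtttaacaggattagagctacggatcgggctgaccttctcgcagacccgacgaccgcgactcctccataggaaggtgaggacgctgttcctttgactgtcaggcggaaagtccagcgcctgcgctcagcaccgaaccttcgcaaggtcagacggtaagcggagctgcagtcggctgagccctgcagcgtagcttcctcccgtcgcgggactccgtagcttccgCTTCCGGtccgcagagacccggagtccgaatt
Mrpl22 (chr11:58171414-58171713, plus strand): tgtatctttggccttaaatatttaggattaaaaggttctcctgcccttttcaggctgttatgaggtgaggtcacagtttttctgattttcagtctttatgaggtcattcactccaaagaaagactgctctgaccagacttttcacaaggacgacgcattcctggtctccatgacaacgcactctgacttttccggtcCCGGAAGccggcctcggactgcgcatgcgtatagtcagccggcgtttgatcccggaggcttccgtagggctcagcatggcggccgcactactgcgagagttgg
Mrps18a (chr17:46110754-46111053, plus strand): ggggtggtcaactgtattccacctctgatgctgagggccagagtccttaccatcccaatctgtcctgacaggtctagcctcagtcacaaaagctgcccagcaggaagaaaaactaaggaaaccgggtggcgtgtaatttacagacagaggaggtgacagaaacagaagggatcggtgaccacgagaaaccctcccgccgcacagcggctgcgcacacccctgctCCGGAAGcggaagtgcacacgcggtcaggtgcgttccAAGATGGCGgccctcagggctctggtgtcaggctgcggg
Mrps27 (chr13:99344536-99344835, plus strand): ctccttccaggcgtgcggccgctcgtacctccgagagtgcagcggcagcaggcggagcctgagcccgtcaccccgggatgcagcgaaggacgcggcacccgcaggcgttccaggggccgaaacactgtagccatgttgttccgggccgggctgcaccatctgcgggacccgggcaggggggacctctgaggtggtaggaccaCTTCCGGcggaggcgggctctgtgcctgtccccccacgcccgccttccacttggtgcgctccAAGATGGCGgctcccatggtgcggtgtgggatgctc
Mrpl32 (chr13:14612988-14613287, minus strand): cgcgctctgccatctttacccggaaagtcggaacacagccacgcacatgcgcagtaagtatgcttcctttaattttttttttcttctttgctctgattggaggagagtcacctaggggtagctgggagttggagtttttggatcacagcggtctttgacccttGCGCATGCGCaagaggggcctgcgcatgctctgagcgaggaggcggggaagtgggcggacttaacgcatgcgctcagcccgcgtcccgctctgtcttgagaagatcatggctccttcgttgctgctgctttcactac
Mrpl35 (chr6:71823735-71824034, minus strand): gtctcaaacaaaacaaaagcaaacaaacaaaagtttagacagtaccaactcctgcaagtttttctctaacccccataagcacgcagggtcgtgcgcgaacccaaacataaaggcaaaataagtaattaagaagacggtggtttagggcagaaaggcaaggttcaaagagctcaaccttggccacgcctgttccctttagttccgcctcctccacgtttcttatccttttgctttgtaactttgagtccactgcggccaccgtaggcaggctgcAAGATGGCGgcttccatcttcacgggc

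The ETS letters (CCGGAAG) were in 24 member windows, or 32.9%, against 8.91% of all 32544 windows and 18.6% of the 10376 windows of genes tested on these arrays. The YY1 letters (AAGATGGCG) were in 8 member windows, or 11%, against 1.41% of all windows and 3.28% of those of tested genes. The NRF1 consensus letters were in 3 member windows, all of large subunit genes, or 4.11%, against 0.974% and 2.04%. So each of these motifs was more frequent among the members than among tested genes, as a description with no test, while the median GC content of member windows (58.3%) lay below that of tested genes' windows (60.3%) and above that of all windows (53%). The shares for the CCAAT box (CCAAT, 41.1% against 38.3% of tested genes' windows) and the E-box (CACGTG, 9.59% against 10.2%) were closer to the background. The GATA letters (AGATAA), the core of sites of the erythroid factor GATA1, were in 15.1% of member windows against 6.67% for tested genes and 11.2% for all. None of the letters searched contains another. Of the 8 YY1 matches, 6 began after the annotated start, at bases 12 to 37, as in Mrps18a (base 12), Mrps27 (base 15) and Mrpl35 (base 24) above. Over all windows 53.3% of YY1 matches began after the start. A match to letters is not a measured binding site.

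**Figure D1:**
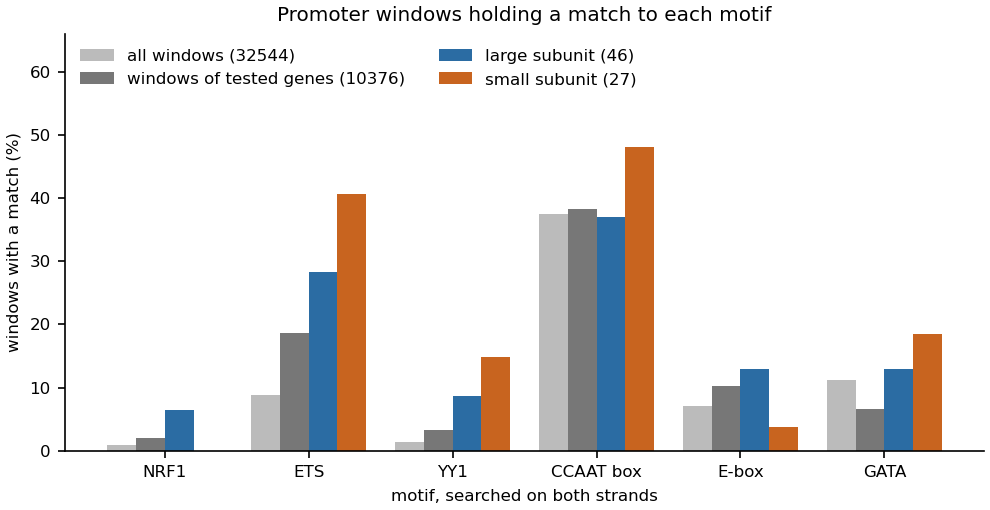
Share of promoter windows, in percent, that held a match to each motif on either strand, for all windows, windows of tested genes, and windows of large and small subunit genes (numbers of windows in brackets). ETS letters were in 28.3% of large and 40.7% of small subunit windows, and the NRF1 letters were in 3 large and 0 small subunit windows.

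Signals are given as log2 intensity minus the array's own 75th percentile, taken over 15527 probes that were well above background throughout, so that a value of 0 is the signal of a well expressed gene. Over all probes, 28.9% to 53% were well above background on an array, with the highest share in P38α+/− replicate 1 and the lowest in P38α−/− replicate 1. Mapk14, the gene of P38α, was not lower in the arrays labelled P38α−/−. Its brighter probe read 0.32, 0.58 and 0.60 in P38α+/− and 0.75, 1.19 and 1.20 in P38α−/− (log2 fold change 0.54, limma's adjusted p = 0.187), and whether its probes lie in the deleted part is not given. For sorted erythroblasts of P38α−/− mice after PolyIC, the paper reported an excised locus and no P38α protein. All 10 erythroid markers were well above background on every array, and their log2 summed signal was 8.11 to 8.38 in P38α+/− and 8.02 to 8.41 in P38α−/−. The 9 neutrophil markers were detected on every array as well, at 6.76 to 8.14 and 5.87 to 6.36. On every array were 1 of 6 B cell markers (−3.32 to 0.24 against −4.26 to −2.48), 4 of 6 macrophage markers (−0.62 to 0.62 against −1.24 to −0.27), 3 of 5 megakaryocyte markers (0.65 to 1.07 against 0.88 to 1.23) and 2 of 5 T or NK cell markers (−0.78 to 1.31 against −1.33 to −0.95). Ppbp and Cd8a were on none. The neutrophil and T or NK cell sums were thus lower on every array labelled P38α−/−. The B cell and macrophage sums overlapped between genotypes but were lower in P38α−/− in all 3 same-numbered pairs, and the megakaryocyte sum was higher in all 3. The part of these markers in the results below was not tested. In bulk RNA, fewer cells of a type and less RNA per cell cannot be told apart.

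The members were expressed throughout. Of the 106 probes, 102, 102 and 100 were well above background on the P38α+/− arrays, and 96, 101 and 101 on the arrays labelled P38α−/−. This was 90.6% to 96.2% of member probes, far above the share of all probes on the same arrays. By gene, 74 of 76 had a probe well above background on all 6 arrays, including all 29 small subunit genes. Mrpl1 and Mrpl35, both of the large subunit, were well above background on 5 arrays each, all 3 of P38α+/− and 2 of P38α−/−. By the scanner's weaker criterion of a positive and significant signal, all 76 genes were detected on all 6 arrays. No gene lacked a detected probe, although 4 probes, second probes of Mrpl21, Mrpl39, Mrpl47 and Mrpl9, were well above background on no array. Probes entered the test when every array of either genotype showed them well above background, which held for 100 of the 106 probes and for all 76 genes. Each gene was read by its brightest tested probe.

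Member signals covered a wide range. On the P38α+/− arrays the lowest member signal was −4.53, −5.28 and −4.79 and the highest 2.69, 2.74 and 2.91. On the arrays labelled P38α−/− the lowest was −5.99, −5.29 and −5.42 and the highest 2.88, 3.05 and 3.09. Probes bind with different strength, so these signals do not order the genes by their RNA level, and only changes of the same probes between arrays are read here. The mean over all members was −0.61, −0.75 and −0.69 in P38α+/− and −0.60, −0.62 and −0.70 in P38α−/−. The group means, −0.68 ± 0.07 and −0.64 ± 0.05 (SD, n = 3), differed by less than the spread between arrays on this scale. Measured from all tested genes instead, the members' median signal stood 1.92, 1.87 and 2.12 above the median tested gene in P38α+/− and 2.29, 2.22 and 2.18 above it in P38α−/−. On that scale the genotypes did not overlap (1.97 ± 0.14 and 2.23 ± 0.05, SD, n = 3). The median tested gene itself read −2.32 ± 0.14 and −2.49 ± 0.03. The median of large subunit genes stood 1.95, 1.95 and 2.26 above it in P38α+/− and 2.55, 2.29 and 2.44 in P38α−/−, barely apart. For small subunit genes the genotypes overlapped, at 1.73, 1.73 and 1.81 against 2.16, 1.83 and 1.74.

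**Figure D2:**
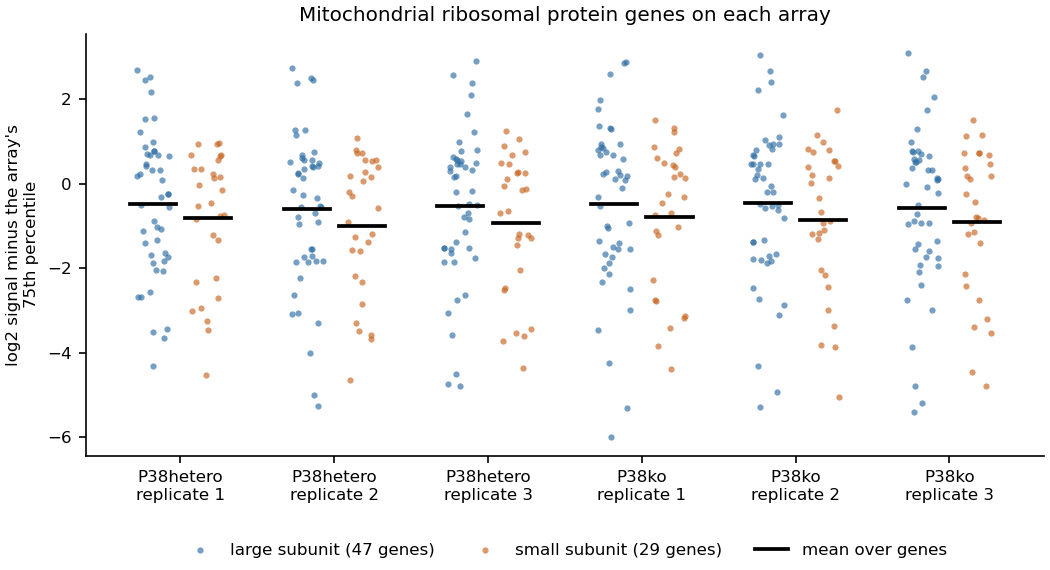
Signal of each mitochondrial ribosomal protein gene (points, brightest tested probe) on each of the 6 arrays, as log2 signal minus the array's 75th percentile, with the mean over genes of each subunit (bars). The means of large subunit genes lie between −0.60 and −0.47 and those of small subunit genes between −1.001 and −0.78 on all arrays, with no separation of P38hetero from P38ko.

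No mitochondrial ribosomal protein gene passed the threshold for a difference between genotypes. By limma with Benjamini-Hochberg adjustment over all tested probes (adjusted p at most 0.05, fold change at least 2), 0 of 76 members and 24 of 14143 tested genes (0.17%) were called, 0.134% of genes as higher and 0.0354% as lower in P38α−/−. The smallest adjusted p of a member was 0.155. The methods' unpaired equal-variance test called 0 members as well, and so did limma under every other setting run. With array weights and no limit on the fold change, Mrpl28 and Mrps21 had an adjusted p at most 0.05 by limma (smallest adjusted p = 0.0311). The number of genes called overall rested on the setting, at 54 with the replicate number as a block and 0 without P38α+/− replicate 2 or without any single array labelled P38α−/−. The share of calls that were higher in P38α−/− was 79.2%, and it moved to 24.1% with the block, 58.4% with the percentile over all probes, 25% with centring on spike-in spots and 15.7% with array weights, which called 1470 genes.

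At an unadjusted p of at most 0.05, 4 members were higher and 1 was lower in P38α−/−, where 4.91% of all tested genes were higher and 15.1% lower. The 4 were Mrps21, Mrpl28, Mrpl22 and Mrps36, and the 1 was Mrpl35. With P38α+/− replicate 1 left out, 5 members were higher. With any other single array left out, 0 to 2 were higher, the 0 being without P38α+/− replicate 2, and 1 or 2 were lower. With the replicate number as a block, 8 members were higher and 3 lower, where 6.94% and 20.3% of all tested genes were. These counts also followed the setting, with 16 higher and 0 lower under the percentile over all probes (13.7% and 7.06% of all tested genes). They were 13 and 6 with array weights (10.4% and 25.8%), 8 and 0 in the authors' table (9.98% and 6.73%) and 0 and 0 with spike-in centring (0.516% and 2.27%). No member differed 2-fold in either direction, and 2 differed by at least 1.5-fold by estimate, both downward (Mrpl35 and Mrpl1), against 4.12% of tested genes higher and 20.7% lower. Both passed the filter on dim probes through P38α+/− alone, the genotype where they read higher, so their direction is set in part by that filter. With the percentile over all probes, which moved the median tested gene from −0.14 to 0.34 and the members' median to 0.54, the count of 1.5-fold differences would not be the same.

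The members' fold changes lay closer together than those of all tested genes, but not closer than those of related groups. Their log2 fold changes ran from −0.88 to 0.51 with a median of 0.06, and the middle 50% lay between −0.10 and 0.21. The middle 50% of all tested genes lay between −0.48 and 0.09. It was −0.13 to −0.00075 for cytosolic ribosomal protein genes and 0.13 to 0.34 for oxidative phosphorylation subunits. The median tested gene had a log2 fold change of −0.14, so that the members' median stood 0.20 above it, with 61 members above the median gene and 15 below. Relative to 0 rather than to the median gene, 46 were positive and 30 negative. Tested genes well above background on all 6 arrays, as nearly all members were, had a median of −0.08. The members' median stayed above the median gene under every scaling run, by 0.06 with quantile normalization and 0.07 in the authors' normalized table. Without overlap between genotypes, 12 members were higher in P38α−/− and 5 were lower, against 7.45% and 19.7% of all tested genes. The 5 include Mrpl35, which passed the filter on dim probes through P38α+/− alone. For tested genes well above background on all 6 arrays the shares were 8.45% and 16.3%. The spread between arrays of a genotype was small for the members. Their median within-genotype SD was 0.15, against 0.28 for all tested genes and 0.25 for those well above background on all 6 arrays. It was as small in related groups, at 0.13 for cytosolic ribosomal protein genes and 0.16 for oxidative phosphorylation subunits.

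**Figure D3:**
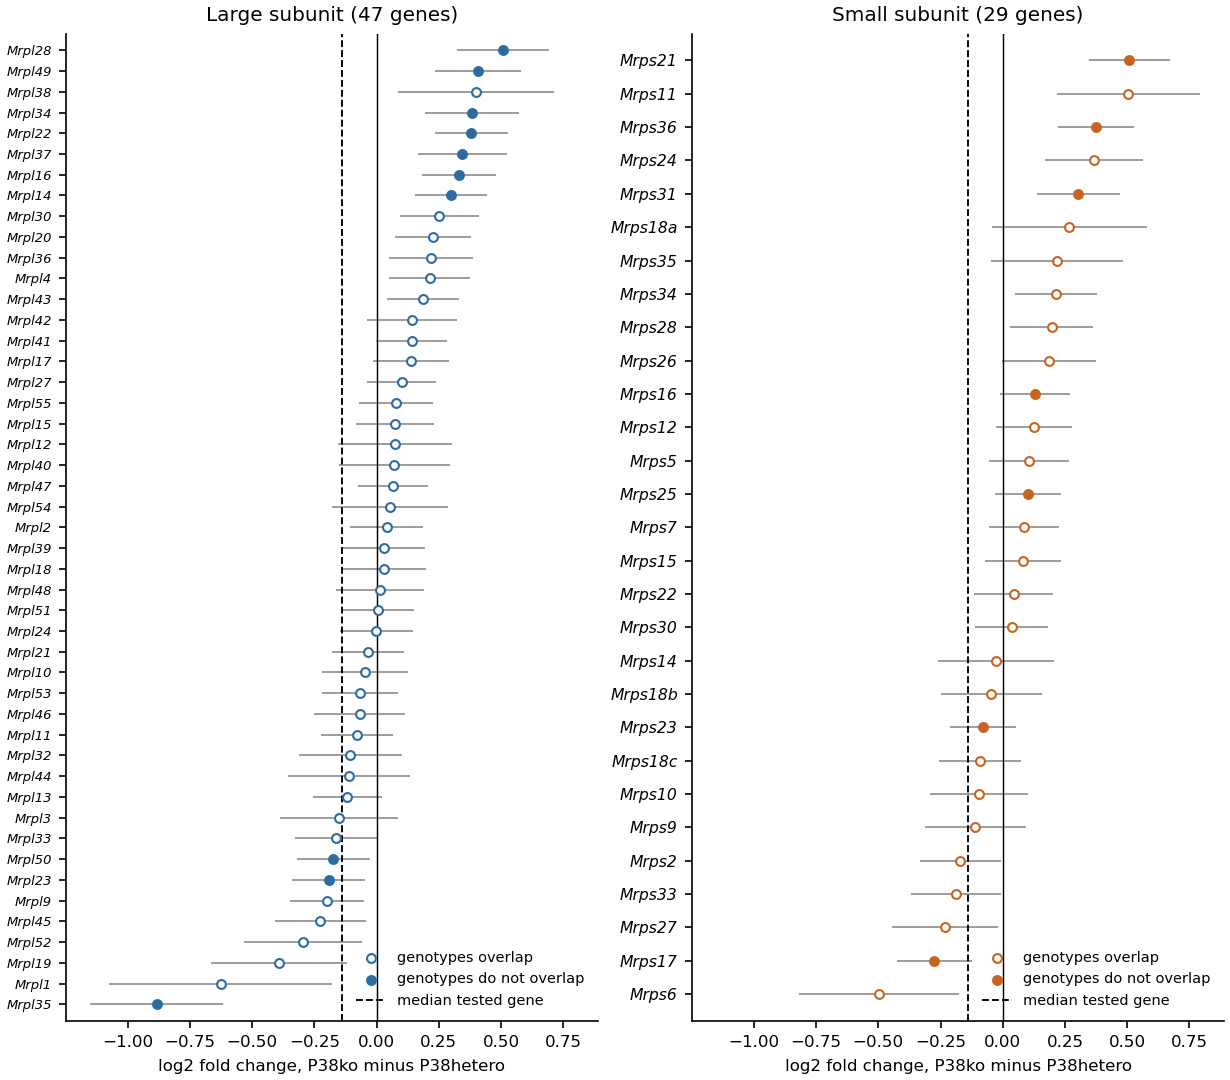
Log2 fold change of each member, P38ko minus P38hetero, with its standard error from limma (bars), for the large and the small subunit. Filled points are the 17 genes whose genotypes did not overlap, the solid line marks 0 and the dashed line the median tested gene at −0.14. Most points lie to the right of the dashed line and none passed the adjusted threshold.

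The difference between the subunits in mean signal overlapped between the genotypes, and its direction depended on the measure. Large subunit genes had a median log2 fold change of 0.04, or 0.18 above the median tested gene, and small subunit genes one of 0.09, or 0.23 above it. Of the 47 large subunit genes 37 were above the median gene, and of the 29 small subunit genes 24 were. Without overlap, 7 large subunit genes (14.9%) were higher and 3 (6.38%) lower, and 5 small subunit genes (17.2%) were higher and 2 (6.9%) lower. Over all tested genes the shares were 7.45% and 19.7%. The mean signal of the large subunit genes was −0.47, −0.60 and −0.54 in P38α+/− and −0.49, −0.47 and −0.57 in P38α−/−. For the small subunit genes it was −0.83, −1.001 and −0.94 in P38α+/− and −0.78, −0.86 and −0.92 in P38α−/−. The large minus small difference within an array was 0.39 ± 0.03 and 0.34 ± 0.05 (SD, n = 3), with values of 0.35, 0.40 and 0.41 in P38α+/− that overlapped those of 0.29, 0.39 and 0.35 in P38α−/−. Within same-numbered pairs it was lower in P38α−/− in all 3, and the small subunit mean was higher in all 3, which was not tested. The difference between the subunits' median changes was −0.05 (large minus small). Median signals per array pointed the other way, which was not tested. In P38α+/− and P38α−/− they were −0.27 ± 0.07 and −0.06 ± 0.15 for the large subunit (SD, n = 3). For the small subunit they were −0.56 ± 0.10 and −0.58 ± 0.25. Large minus small median signal had a spread between arrays of 0.15, which does not apply to median changes. Symbols do not fully follow structure, since the proteins of Mrps18a and Mrps30 sit in the large subunit and that of Mrps36 is also counted with the 2-oxoglutarate dehydrogenase complex. Moving Mrps18a and Mrps30 to the large subunit (49 and 27 genes) left the medians at 0.04 and 0.09, and leaving out Mrps36 gave a difference of −0.04.

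Among members well above background on all 6 arrays whose genotypes did not overlap, the largest positive fold change was that of Mrps21, a small subunit protein with a bacterial counterpart. Its brightest probe (chromosome 3, 95666577 to 95666636, mm9) read 0.93, 1.07 and 1.25 in P38α+/− and 1.51, 1.75 and 1.52 in P38α−/−. All 3 arrays labelled P38α−/− were higher, with a log2 fold change of 0.51 (standard error, SE, 0.16, limma's adjusted p = 0.167). A second probe, shifted by 20 bases and so not independent, gave 0.49. An exact permutation of 3 arrays against 3 cannot give a two-sided p below 0.1, so no single member can pass by that test.

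Mrpl28, a large subunit protein, read 0.98, 0.56 and 0.63 in P38α+/− and 1.37, 1.02 and 1.29 in P38α−/− (chromosome 17, 26261526 to 26261585). Its lowest P38α−/− array lay just above the highest P38α+/− array, and the log2 fold change was 0.51 (SE 0.19, limma's adjusted p = 0.201). Mrpl28 lies 2.62 Mb from Mapk14 and was the nearest of 8 members on chromosome 17, where the others lay 3.85 to 18.6 Mb away. The median log2 fold change of those 8 was 0.13, against −0.12 for all 746 tested genes of the chromosome.

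Mrpl22, which lines the tunnel through which the new chain leaves, read 0.47, 0.42 and 0.39 in P38α+/− and 0.69, 0.94 and 0.78 in P38α−/−. The genotypes were well apart, with a log2 fold change of 0.38 by this probe (limma's adjusted p = 0.214) and 0.48 by a dimmer one that did not overlap either. Mrps36 read 0.97, 0.72 and 0.67 against 1.21, 1.15 and 1.12, a log2 fold change of 0.37 (limma's adjusted p = 0.231) with a second probe at 0.32. Both probes of each gene thus pointed the same way, with all 3 arrays labelled P38α−/− higher.

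Mrpl49 read −0.24, −0.54 and −0.17 in P38α+/− and 0.24, −0.06 and 0.08 in P38α−/− (log2 fold change 0.41, limma's adjusted p = 0.246). Its second probe gave 0.22, again without overlap. Mrpl34 read −0.24, −0.52 and −0.69 against 0.11, −0.20 and −0.22 (log2 fold change 0.38, limma's adjusted p = 0.299). For both genes replicate 1 was the higher or highest array in P38α−/−, and the smallest gap between the genotypes was narrow.

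Negative fold changes among such members were smaller. By the same rule only 3 genes were lower without overlap and below the median tested gene. Mrps17, a small subunit protein with a bacterial counterpart, read −0.46, −0.57 and −0.65 in P38α+/− and −0.70, −0.88 and −0.94 in P38α−/−. Its log2 fold change was −0.27 (−0.14 relative to the median gene, limma's adjusted p = 0.344). A second probe gave −0.22, with overlapping genotypes.

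Mrpl23, which sits at the exit of the tunnel, read 0.68, 0.67 and 0.58 against 0.57, 0.46 and 0.31. Its genotypes were barely apart, and the log2 fold change was −0.19 (−0.05 relative to the median gene, limma's adjusted p = 0.493), with −0.21 by a second probe shifted by 5 bases whose genotypes overlapped. Mrpl50 read −2.69, −2.63 and −2.63 against −2.99, −2.73 and −2.75, or −0.17 as a log2 fold change (−0.03 from the median gene, limma's adjusted p = 0.542), and its second probe gave −0.33 with overlap. Relative to the median gene, the sign of Mrpl50 turned with quantile normalization and in the authors' table.

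Mrpl35 and Mrpl1, singled out after their values were seen as the members not well above background on all 6 arrays, passed the filter on dim probes through P38α+/− alone, so their negative fold changes are given as values only. Mrpl35 read −4.32, −5.00 and −4.75 in P38α+/− and −5.99, −5.29 and −5.42 in P38α−/−, where 2 of 3 arrays were well above background (chromosome 6, 71765277 to 71765336). All 3 arrays labelled P38α−/− were lower, and the log2 fold change was −0.88 (SE 0.27, limma's adjusted p = 0.155). Mrpl1 read −3.50, −5.28 and −4.79 against −5.31, −4.93 and −5.21, and its genotypes overlapped (log2 fold change −0.63, limma's adjusted p = 0.464). That value rested on P38α+/− replicate 1, since relative to the median gene it was −0.49 with all arrays and −0.03 without that one. Each of the 2 probes was not well above background on 1 array labelled P38α−/−, so the lowest values there are uncertain.

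**Figure D4:**
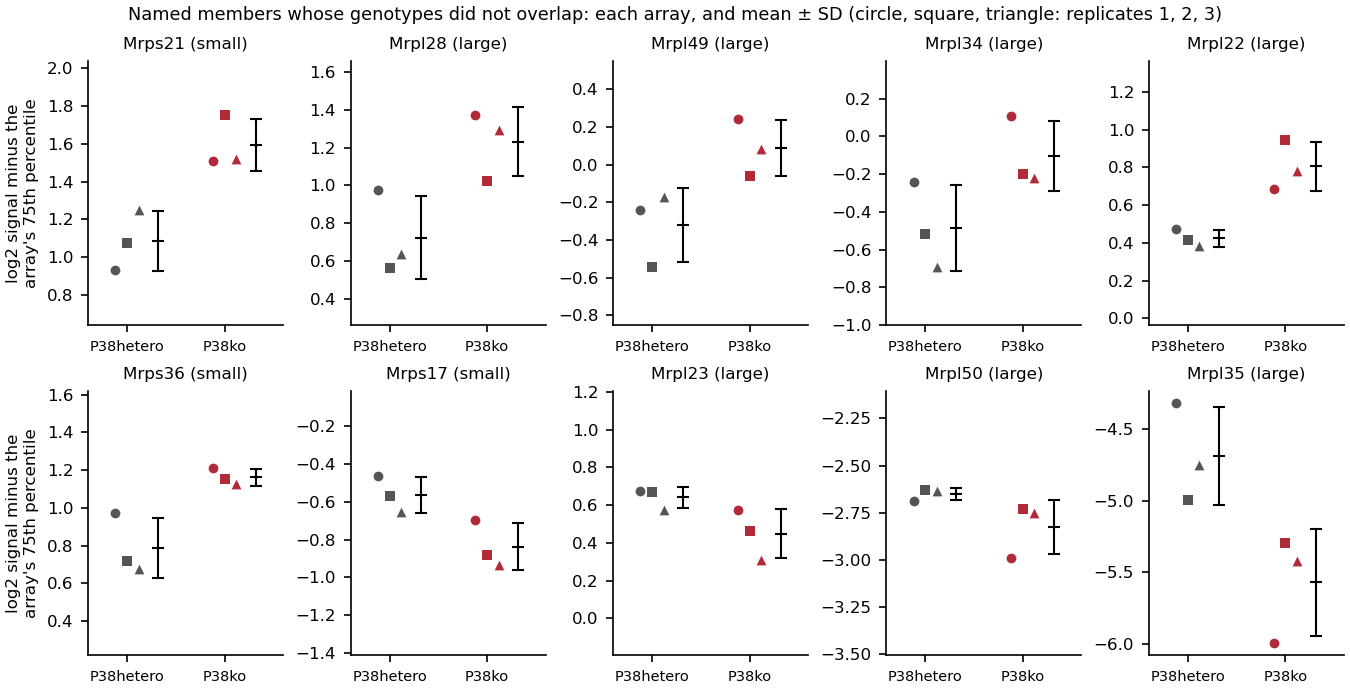
Signal of 10 named members on each array (log2 signal minus the array's 75th percentile, axes of at least 1.4 units), with mean ± SD of 3 arrays per genotype and a symbol for each replicate number. The first 6 panels are the largest positive fold changes among members whose genotypes did not overlap, the next 3 the negative ones, and the last is Mrpl35, whose signals of −5.99 to −4.32 are near background.

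Replicate numbers were taken to pair the mice, which the sample labels do not state. Some members were more even within these pairs than between arrays. Mrps11, picked out for this after its values were seen, read −0.83, −1.60 and −1.29 in P38α+/− and −0.31, −1.10 and −0.81 in P38α−/−. The genotypes overlapped, yet the difference was 0.52, 0.51 and 0.48 in pairs 1, 2 and 3. With the pair as a block its adjusted p was 0.0971 from limma, the smallest of any member, against 0.362 without the block. Over all members, 29 were higher in all 3 pairs and 13 lower in all 3, where 17.3% and 37.3% of all tested genes were.

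Genes fixed by their role mostly stayed within the spread between arrays. Mrpl12 and Mrpl10 form the stalk that recruits translation factors, and MRPL12 is also known to bind the mitochondrial RNA polymerase. Mrpl12 read 0.88, 0.55 and 0.19 in P38α+/− and 0.86, 0.46 and 0.51 in P38α−/−, a log2 fold change of 0.07 (SE 0.23). Mrpl10 (−0.05) and Mrpl11 (−0.08), at the base of the stalk, were as close to 0. Mrpl3, next to the peptidyl transferase center, had −0.15, and Mrpl45, which helps anchor the ribosome to the inner membrane, −0.23. Mrpl18 (0.03), Mrpl41 (0.14) and Mrpl44 (−0.11) completed the large subunit genes of this group. The genotypes of all 8 overlapped, and their adjusted p lay between 0.516 and 0.943 by limma.

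In the small subunit, Mrps12, which helps set the accuracy of decoding, read 0.68, 0.54 and 0.50 in P38α+/− and 0.82, 0.54 and 0.73 in P38α−/− (log2 fold change 0.13, limma's adjusted p = 0.682). Mrps16, for which mutations that impair respiration are known in humans, read 0.15, 0.16 and 0.12 against 0.23, 0.38 and 0.19, with no overlap and a log2 fold change of 0.13 (limma's adjusted p = 0.645). The 3 homologs Mrps18a, Mrps18b and Mrps18c had log2 fold changes of 0.27, −0.05 and −0.09 and overlapping genotypes. Mrps18a varied most among them, at −0.52, −1.26 and −1.22 against −0.25, −1.16 and −0.78. Mrps22 (0.04), Mrps30 (0.04) and Mrps34 (0.21) also overlapped.

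Where a gene had several tested probes, these mostly pointed the same way. Of 23 such genes, the probes of 6 differed in sign, namely Mrpl10, Mrpl15, Mrpl47, Mrps14, Mrps2 and Mrps25. The gap between probes was largest for Mrps25, at 0.38. Its bright probe read 0.34, 0.26 and 0.25 in P38α+/− and 0.39, 0.41 and 0.36 in P38α−/−, a log2 fold change of 0.10 without overlap. A dim probe of the same gene, about −4 on this scale, gave −0.27 with overlap. The direction given for Mrps25 therefore depends on the probe. A second probe of Mrpl30 was placed on chromosome 11, whereas RefSeq has the gene on chromosome 1.

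The members lay between the other 2 gene groups of related function. Genes of cytosolic ribosomal proteins, which translate the cell's nuclear messages, had a median log2 fold change of −0.06 over 82 tested genes, or 0.08 above the median tested gene. In that group 2 (2.44%) were higher and 8 (9.76%) lower without overlap, against 7.45% and 19.7% of all tested genes. Nuclear genes of oxidative phosphorylation subunits, the partners of the proteins made by mitochondrial ribosomes, had a median of 0.22 over 78 tested genes, or 0.36 above the median gene. Of these, 30 (38.5%) were higher and 0 lower without overlap, against the same 7.45% and 19.7%, although 0 passed the adjusted threshold by limma. At an unadjusted p of at most 0.05, 13 were higher and 1 lower, where 4.91% and 15.1% of all tested genes were. The mean signal of the oxidative phosphorylation genes was 1.79, 1.73 and 1.77 in P38α+/− and 1.95, 1.99 and 1.94 in P38α−/−, with no overlap. Differences between gene groups were not tested.

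**Figure D5:**
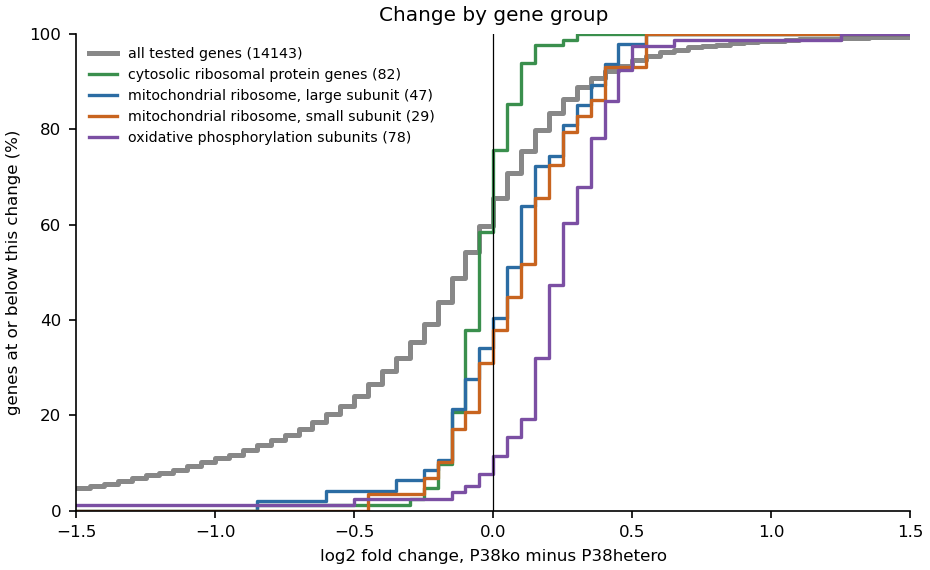
Cumulative share of genes, in percent, at or below each log2 fold change (P38ko minus P38hetero) for all tested genes, cytosolic ribosomal protein genes, the large and small subunits of the mitochondrial ribosome and oxidative phosphorylation subunits (numbers of genes in brackets). The medians are −0.14, −0.06, 0.04, 0.09 and 0.22 in that order, and both subunits of the mitochondrial ribosome lie between the other 2 groups over most of the range.

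The rest of the machinery for mitochondrial translation was read from 5 gene lists, in none of which a gene passed the adjusted threshold by limma. Over all tested genes, 4.91% were higher and 15.1% lower at an unadjusted p of at most 0.05. Mitochondrial ribosomal proteins with other names on the array (6 of 6 tested, 0 with an unadjusted p of at most 0.05) had a median log2 fold change of 0.08, from 0.03 for Ptcd3 to 0.34 for Gadd45gip1. They include Mrpl58 (0.05), whose RefSeq symbol fits the naming rule but was not its name on the array. Translation factors (15 of 17 tested, 0 at an unadjusted p of at most 0.05) had a median of 0.02, with Oxa1l, which inserts proteins into the inner membrane, highest at 0.28 and Mtrf1 lowest at −0.54. Aminoacyl-tRNA synthesis (17 of 20 tested, 2 higher and 1 lower at an unadjusted p of at most 0.05) had a median of 0.03. Fars2, the phenylalanyl-tRNA synthetase of mitochondria, read −0.35 ± 0.07 and 0.32 ± 0.07 (SD, n = 3), a log2 fold change of 0.67 (limma's adjusted p = 0.102) with all 3 arrays labelled P38α−/− higher. Qrsl1, a subunit of the glutamyl-tRNA amidotransferase, was lowest at −0.82 (limma's adjusted p = 0.148) and, being well above background on 5 arrays, passed the filter through 1 genotype only.

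Assembly and ribosomal RNA modification (27 of 28 tested) had a median of 0.07. At an unadjusted p of at most 0.05, 3 were higher and 1 lower, where 4.91% and 15.1% of all tested genes were. Rbfa, a ribosome binding factor that acts in small subunit maturation, read −1.37 ± 0.29 in P38α+/− and −0.36 ± 0.25 in P38α−/− (SD, n = 3). Its log2 fold change of 1.01 (SE 0.22, limma's adjusted p = 0.105) exceeded that of every ribosomal protein. Mrm1, a methyltransferase of the large subunit RNA, read 2.06 ± 0.23 and 1.32 ± 0.19, a log2 fold change of −0.74 (limma's adjusted p = 0.128). The genotypes of neither gene overlapped, so 2 factors of the same list lay on opposite sides.

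Transcription of mitochondrial DNA and its regulators (12 of 16 tested) had a median of −0.14, next to that of the median tested gene. At an unadjusted p of at most 0.05, 0 were higher and 1 lower, where 4.91% and 15.1% of all tested genes were. Myc was highest at 0.05, and Tfb2m, a factor that starts mitochondrial transcription, lowest at −0.89 (limma's adjusted p = 0.2004). Tfb2m was also well above background on 5 arrays and passed the filter through 1 genotype only. For the factors behind the promoter motifs above, named for that reason and not by the rule, the log2 fold changes were −0.10 for Nrf1, −0.39 for Gabpa, −0.13 for Gabpb1 and −0.11 for Yy1 (adjusted p = 0.743, 0.456, 0.656 and 0.738 from limma). Members with an ETS match (24 genes) had a median log2 fold change of 0.02 and the 43 without one 0.07, while the 8 with a YY1 match had 0.24 and the 59 without one 0.03. These are descriptions with no test, and the 8 include Mrpl35.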

How the data were processed

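RNA of sorted CD71highTer119+ erythroblasts of 3 P38α+/− and 3 P38α−/− mice was hybridised to 1 single-colour Agilent array each. The authors deposited the intensity of every spot as written by Agilent Feature Extraction 10.7.3.1 (file headers), background-subtracted and not normalized between arrays, and a table of normalized intensities on a linear scale whose steps are not given in the sources used here. Probe positions are mm9. Groups came from the sample labels, and 0 columns were left unassigned.

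Control spots and outlier spots were left out, spots of a probe were averaged, and the 75th percentile of log2 signals over 15527 probes well above background on all 6 arrays was subtracted per array, because under 50% of probes were detected on most arrays. No spot was saturated. Genotypes were compared with limma 3.58.1 (lmFit, eBayes, two-sided) in R 4.3.3 over 18769 probes of 14143 genes, each gene read by its brightest tested probe. P-values measure the spread between these mice, and the number of arrays limits the precision. The fit was tested on simulated data, with an outcome that is not reported here.

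Replicate numbers were taken as pairs, since the series description speaks of pairs of mice and same-numbered arrays deviated together, with correlations of 0.404, 0.255 and 0.404 for replicates 1, 2 and 3, against at most 0.0392 between numbers. These correlations come from the same arrays that the block was fitted to, so they are no independent evidence of pairing. The methods' comparison is unpaired, so the block is an alternative. P38α−/− replicate 3 was alone on its slide and scan, so the slide block gives the same values as dropping that array. In the authors' table the column of P38α−/− replicate 2 had a Spearman correlation of 0.897 with its scanner signals, against 1 for the others.

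Members, lists and tests were chosen with earlier results of these data known. The text names up to 6 members in each direction with the largest fold changes relative to the median gene, without overlap and well above background on all 6 arrays (6 higher and 3 lower met this), members fixed by role, those whose probes differ in sign, and the highest and lowest fold change of each list. Alternatives were other scalings (all-probe percentile, quantile, E1A spike-in spots), normexp with offset 50, filters on dim probes, the authors' table, the replicate number or slide as a block, array weights, the mean over a gene's probes, the methods' unpaired equal-variance test, no fold limit, each array left out, Mrps36 left out, and, chosen after the data were seen, Mrps18a and Mrps30 counted with the large subunit. No set test was run.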

Additional observations from a re-analysis of the deposited data

How the results depend on the processing

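Under every alternative 0 members passed the adjusted threshold with a 2-fold change, and the members' median stayed above the median tested gene. That median, 0.20 as reported, was 0.0619 with quantile normalization, 0.35 without a filter on dim probes and 0.0733 in the authors' normalized table, and 0.16 to 0.25 with 1 array left out. The difference between the subunits' median changes (large minus small) ran from −0.11 to 0.00 over the alternatives, with no spread between arrays to set it against. The median tested gene, at −0.14 as reported, moved to 0.34 with the all-probe percentile, 0.05 with quantile normalization, 0.0021 with spike-in centring and −0.29 without a filter on dim probes. The number of tested genes called, 24 as reported, was 661 with the all-probe percentile, 14 with quantile normalization, 8 with spike-in centring, 11 with normexp, 0 without a filter on dim probes, 69 with probes well above background on all 6 arrays, 10 in the authors' table, 0 with the slide as a block, 1470 with array weights, 2 with the methods' test, and 0 to 51 with 1 array left out. With the replicate number as a block, which takes same-numbered mice as pairs, it was 54, and 0 members were called.

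Relative to the median gene, the following named members changed sign. With quantile normalization Mrpl11 was −0.12, Mrpl18 −0.0164, Mrpl50 0.00524, Mrps18b −0.0813, Mrps18c −0.152 and Mrps2 0.18. In the authors' table Mrpl11 was −0.0889, Mrpl50 0.0404, Mrps18b −0.0819, Mrps18c −0.14 and Mrps2 0.21. With array weights Mrpl11 was −0.0797, Mrpl44 −0.367, Mrps18b −0.0229 and Mrps2 0.14. With no filter on dim probes Mrpl23 was 0.0943, Mrpl3 0.14, Mrpl45 0.0599, Mrpl50 0.11, Mrps17 0.0123 and Mrps2 0.12. With normexp Mrpl44 was −0.00057 and Mrps18c −0.0272, and with probes well above background on all 6 arrays they were −0.0276 and −0.00861. With the mean over a gene's probes Mrpl3 was 0.0088 and Mrps2 0.10, and with the slide as a block Mrpl23 was 0.0080. With 1 array left out the ranges were −0.0249 to 0.239 for Mrpl10, −0.0324 to 0.122 for Mrpl11, −0.11 to 0.0080 for Mrpl23, −0.21 to 0.21 for Mrpl3, −0.15 to 0.21 for Mrpl44, −0.229 to 0.0312 for Mrpl45, −0.108 to 0.0543 for Mrpl50, −0.0512 to 0.296 for Mrps14, −0.0826 to 0.196 for Mrps18b, −0.0947 to 0.161 for Mrps18c and −0.142 to 0.0297 for Mrps2. Leaving out the filter on dim probes kept each member's own fold change and lowered the median tested gene from −0.14 to −0.29, which moved every member alike. For the other settings the cause was not tested. Mrps21, Mrpl28, Mrpl49, Mrpl34, Mrpl22 and Mrps36 kept their direction in these alternatives. Signal over background limits Mrpl1, Mrpl35 and other dim probes.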
